A study of Homo sapiens with 9 samples.

Results

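The ABC transporters are a family of ATP-driven proteins that move lipids, drugs, conjugates, peptides and cofactors across membranes, and their mRNA was measured here in SKOV3, a human ovarian cancer cell line. The members were chosen by name and not by level. They are the protein-coding genes whose symbol starts with ABC, a subfamily letter from A to G and a number, which gave 45 of the 58735 genes in the deposited table. Of these, 25 had enough counts to be tested and 20 did not. The subfamilies held 12 (A), 9 (B), 11 (C), 4 (D), 1 (E), 3 (F) and 5 (G) genes, of which 5, 5, 6, 3, 1, 3 and 2 were tested.

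Bulk RNA was sequenced in 3 groups of 3 libraries. The first group was SKOV3 cells expressing WT CDK9, the second the same cells given an ALK inhibitor for 24 h, and the third SKOV3 cells expressing Tyr19Phe CDK9, in which the tyrosine at that position is replaced by phenylalanine and can no longer be phosphorylated. CDK9 is the kinase of the elongation factor P-TEFb, which releases paused RNA polymerase II, and ALK is a receptor tyrosine kinase. For other assays the study put WT and Tyr19Phe CDK9 back into cells whose own CDK9 had been depleted, and for these libraries the sources say only that the cells express one or the other. The substitution and any other difference between the WT and Tyr19Phe cells therefore cannot be told apart. The inhibitor and its dose are not given for these libraries, nor is a vehicle for the other groups. Nothing states that the libraries of a group came from separate cultures, so p-values measure the spread between these libraries, which may be technical. Both contrasts against WT CDK9 use the same 3 WT libraries.

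ABC proteins share an ATP-binding domain, and most pair it with membrane-spanning segments that form the transport path. Subfamily A carries lipids. Subfamilies B, C and G include the pumps that expel drugs from tumour cells, among them P-glycoprotein (ABCB1) and BCRP (ABCG2), which export several PARP inhibitors. Further B members and subfamily D work in mitochondria, peroxisomes and lysosomes, while ABCE1 and the F members have no membrane segment and act on ribosomes.

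Depth ranged from 18169050 to 29320184 counts per library and was highest in the Tyr19Phe libraries, so 3 counts corresponded to 0.101 to 0.165 CPM (counts scaled to a common library total), a floor for counting error only. Epithelial keratins and ERBB2, which SKOV3 cells express strongly, were high in every library (KRT8, 23579 to 49518 counts). Of the 5 epithelial markers, KRT8 and KRT18 were higher in Tyr19Phe than in WT libraries (log2 fold changes 0.38 and 0.39), and KRT19 (-1.24), EPCAM (-0.82) and ERBB2 (-0.29) were lower. With the inhibitor KRT19 (0.21) and ERBB2 (0.54) were higher. PTPRC, the pan-leukocyte marker, had 0 to 2 counts. The summed level of the 4 fibroblast markers was 45.8 to 47.2 TPM (counts scaled for gene length and library total) in WT, 53.8 to 69.1 with the inhibitor and 15.5 to 21.6 in Tyr19Phe libraries. It came from COL1A1 and COL1A2, with LUM at 0 to 4 and PDGFRB at 0 to 11 counts, and the part of these shifts in the results below was not tested. The endothelial marker CDH5 reached 35 counts in Tyr19Phe libraries. CDK9 had 861 to 1578 counts per library and ALK 0 to 5, and gene counts do not show the substitution at Tyr19. The mean of CDK9 was 48.5 CPM in WT, 45.5 with the inhibitor and 54.9 in Tyr19Phe libraries. Its log2 fold changes against WT were -0.09 with the inhibitor and 0.18 in Tyr19Phe libraries (edgeR, adjusted p = 0.665 and 0.106). Tyr19Phe libraries were above inhibitor-treated ones by 0.27 (edgeR, adjusted p = 0.00961). In bulk RNA, fewer cells expressing a gene and less of its RNA per cell cannot be told apart.

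Levels between genes were compared as TPM. ABCE1, which splits ribosomes after translation ends, was the most abundant member, with a median of 128 TPM over the 9 libraries. ABCF1, which assists translation initiation, followed at 124, and ABCC1, the multidrug resistance protein MRP1, at 99.7. ABCD3 of the peroxisome (75.9) and ABCB10 of the mitochondrion (71.7) came next. At the other end of the tested genes, ABCG2 had a median of 0.958 TPM. No untested member had a median above 0.230 TPM, the value of ABCC6.

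**Figure D1:**
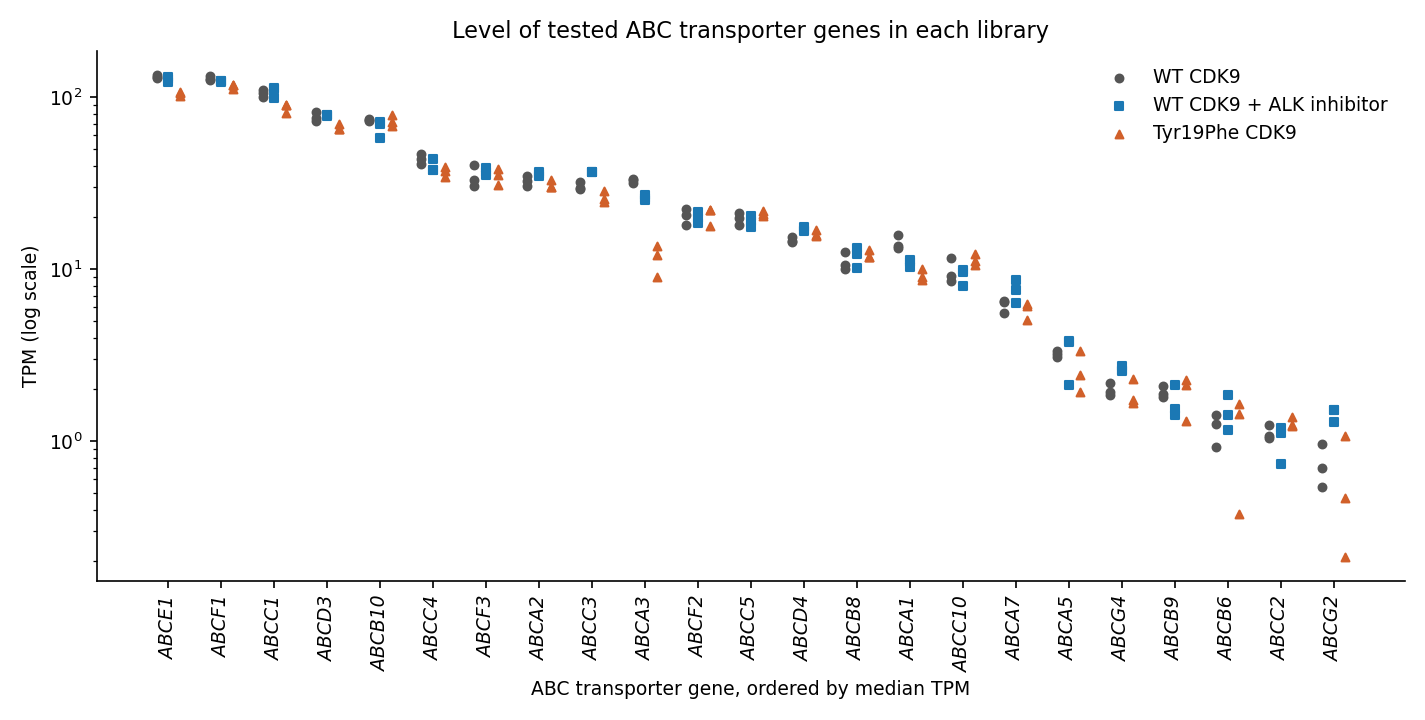
Level of 23 of the 25 tested ABC transporter genes (horizontal axis, ordered by median) in TPM on a log scale (vertical axis). Each symbol is 1 library, with circles for WT CDK9, squares for WT CDK9 with the ALK inhibitor and triangles for Tyr19Phe CDK9. The medians run from 128 TPM for ABCE1 to 0.958 for ABCG2.

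The sum over all 45 members was 841 ± 2.93 TPM (SD, n = 3) in WT cells, 838 ± 17.4 with the inhibitor and 735 ± 26.0 in Tyr19Phe cells. The 3 Tyr19Phe libraries (709 to 761) lay below all 6 others (819 to 851). The soluble E and F members held 36.1 to 38.5% of this sum in every library, and the 9 multidrug pumps held 24.5 to 26.5%. ABCB1 and ABCG2 together held 0.0668 to 0.199%.

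In the comparison of Tyr19Phe with WT CDK9, which holds the substitution and any other difference between these cells, ABC transporter genes moved down where they moved. Tests were made in edgeR over all 16350 genes with enough counts, and a gene was called at an adjusted p under 0.05. Of the 25 tested members, 8 fell: ABCA3, ABCA1, ABCE1, ABCC1, ABCC4, ABCC3, ABCD3 and ABCF1. This count was 4 without WT replicate 1 and 5 without WT replicate 3 or Tyr19Phe replicate 2. Over all tested genes 10.4% fell (1695 genes), and in those 3 fits 1293, 1320 and 1339 genes fell, in the same order. None of the members rose, against 7.61% of all genes, by edgeR or by DESeq2, and 0 were higher at an unadjusted p under 0.05. The median log2 fold change was -0.07 for the members and 0.00 for all genes. The libraries of both groups did not overlap for 9 members, where the share over all genes is 32.6%. Among the 9773 tested genes that averaged at least 10 CPM over the libraries, 8 of 19 members fell (42.1%) against 15.1% of genes. By role, the median log2 fold change of tested members was -0.21 for the multidrug pumps and -0.10 for the peroxisomal and lysosomal transporters. It was -0.08 for the cholesterol and phospholipid transporters, -0.06 for the soluble proteins and -0.0035 for the mitochondrial transporters. Of the 7 tested pumps, 4 were below 0 and 3 above. The 4 include ABCG2, which was near the floor and had a value of 0.06 without Tyr19Phe replicate 3.

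With the ALK inhibitor, which asks what changes when the upstream kinase is blocked for 24 h, fewer members moved. ABCA1 and ABCA3 fell, where 2.73% of all genes fell. ABCC3 rose, where 1.82% of all genes rose. The other 22 tested members were not called. The members' median log2 fold change was -0.0071 against -0.0010 for all genes, and the groups did not overlap for 10 members, with 19.6% over all genes. Medians by role were -0.09 for the multidrug pumps, 0.08 for the peroxisomal and lysosomal transporters, 0.09 for the cholesterol and phospholipid transporters, -0.08 for the soluble proteins and 0.08 for the mitochondrial transporters.

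Tyr19Phe and inhibitor-treated libraries were also compared directly, which tests whether the effects against the shared WT libraries differ. Here 6 members were lower in Tyr19Phe cells (among them ABCA3, ABCC3, ABCC1, ABCE1 and ABCD3), with 11.1% lower over all genes. ABCC10 was higher, with 9.57% higher over all genes. The groups did not overlap for 14 members, and for 34.4% of all genes.

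**Figure D2:**
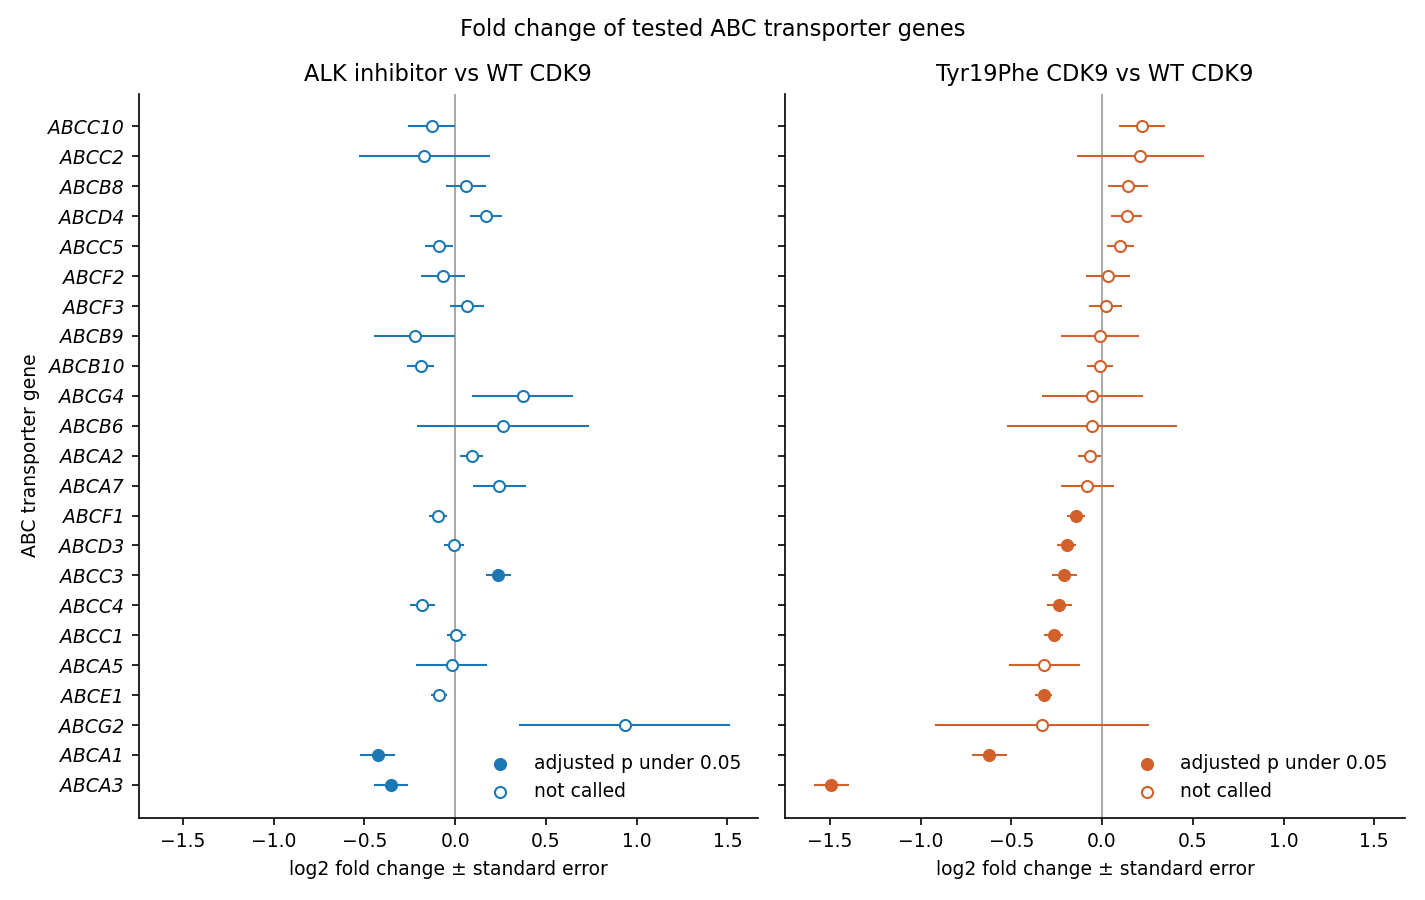
Log2 fold change against WT CDK9 (horizontal axis) with its standard error for 23 of the 25 tested ABC transporter genes (vertical axis), with the ALK inhibitor on the left and Tyr19Phe CDK9 on the right. Filled points passed an adjusted p under 0.05. There are 3 filled points on the left, of which ABCC3 is above 0, and 8 on the right, all below 0, with ABCA3 farthest at -1.49.

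The lipid transporters held the largest called changes against WT CDK9. Of the 9 transporters of cholesterol and phospholipid, 5 were tested, and ABCA3 and ABCA1 fell in each comparison with WT CDK9. That is 40.0% in each, beside 10.4% of all genes in Tyr19Phe cells and 2.73% with the inhibitor. Both shares are the same 2 genes against the same WT libraries. The list was chosen with earlier results of these data known, so the shares are a description only. The summed level of the 9 transporters was 88.0 ± 4.83 TPM in WT cells, 83.0 ± 2.20 with the inhibitor and 59.7 ± 4.48 in Tyr19Phe cells.

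ABCA3 (ENSG00000167972, chromosome 16, 2275881 to 2340746, in the positions of the deposited table) loads phospholipid into lamellar bodies and is known for its part in lung surfactant. Its level was 59.8, 61.8 and 63.0 CPM in the WT libraries, 46.2, 48.0 and 50.2 with the inhibitor, and 25.5, 22.8 and 17.3 in Tyr19Phe cells. No library of one group reached the range of another. In Tyr19Phe cells the log2 fold change was -1.49 ± 0.10 (SE, adjusted p = 3.00e-13), which is 0.356 of the WT level. With the inhibitor it was -0.35 ± 0.09 (adjusted p = 0.0223). The direct difference was -1.14 ± 0.10 (adjusted p = 1.81e-10). When 1 library was left out, the call with the inhibitor was kept only without inhibitor replicate 3. It was lost without any one of the WT libraries (adjusted p = 0.0666, 0.0658 and 0.0841 without WT replicates 1, 2 and 3) or of inhibitor replicates 1 and 2 (0.118 and 0.0804).

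ABCA1 (ENSG00000165029, chromosome 9, 104781002 to 104928237) exports cholesterol and phospholipid to apolipoprotein A-I and so starts the formation of HDL. Its level was 37.6, 36.2 and 43.5 CPM in WT, 30.2, 29.4 and 27.6 with the inhibitor and 27.3, 24.8 and 24.2 in Tyr19Phe libraries. Every WT library was above the 6 others. Log2 fold changes were -0.43 ± 0.10 with the inhibitor (adjusted p = 0.00528) and -0.62 ± 0.10 in Tyr19Phe cells (adjusted p = 1.12e-05). The direct difference, -0.19 ± 0.10, did not pass the test (adjusted p = 0.173). Without WT replicate 3, the highest WT library, the call with the inhibitor was lost (adjusted p = 0.0764).

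Tested genes around these loci had medians near 0. Within 5 Mb, the median log2 fold change in Tyr19Phe cells was 0.02 over 184 tested neighbours of ABCA3 and 0.04 over 32 of ABCA1. ABCA17P, a pseudogene on the opposite strand that overlaps ABCA3 over 1597 bases, had 14 to 37 counts per library.

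The sequences before the start of ABCA1 and ABCA3 are shown because these genes fell in each comparison with WT CDK9. They are the 250 bases before the start in RefSeq (GRCh38.p14), both on the minus strand, at chr9:104928156-104928405 for ABCA1 and chr16:2340729-2340978 for ABCA3, written 5′ to 3′ with the GC box GGGCGG in capitals.
ABCA1: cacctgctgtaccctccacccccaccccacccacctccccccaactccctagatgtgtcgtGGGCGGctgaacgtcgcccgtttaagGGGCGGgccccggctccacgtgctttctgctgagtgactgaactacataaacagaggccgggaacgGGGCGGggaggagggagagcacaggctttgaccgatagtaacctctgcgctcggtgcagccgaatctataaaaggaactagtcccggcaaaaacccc
ABCA3: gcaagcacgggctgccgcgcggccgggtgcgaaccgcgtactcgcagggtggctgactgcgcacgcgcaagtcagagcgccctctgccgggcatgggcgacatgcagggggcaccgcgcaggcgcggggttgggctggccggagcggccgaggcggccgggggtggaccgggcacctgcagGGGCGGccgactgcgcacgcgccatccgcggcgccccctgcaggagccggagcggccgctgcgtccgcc

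Their GC content was 61.6% for ABCA1 and 79.2% for ABCA3, with a median of 58.0% over the 27305 promoters of the same length. Both strands were searched. The GC box was found 3 times before ABCA1, at 189, 163 and 97 bases before the start, and 1 time before ABCA3, at 69 bases, and 42.3% of all promoters held it. TATAAA stood 31 bases before the RefSeq start of ABCA1 and was not in the ABCA3 window, and 11.1% of all promoters held it. The deposited positions start ABCA1 at 104928237 and ABCA3 at 2340746, inside these windows. The last bases of each window therefore lie within the gene as deposited, and for ABCA1 they hold this TATAAA. The E-box CACGTG, 147 bases before the start of ABCA1, was in 6.49% of promoters. CCAAT, in 33.0% of promoters, was in neither window. Of the 35 members with an entry, 18 held a GC box, 16 of them among the 21 tested members. A match of letters is a description and not a bound site.

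The other lipid transporters were not called. ABCA2, a lysosomal lipid transporter, was at 91.1 ± 6.31 CPM (SD, n = 3) in WT, 97.0 ± 3.11 with the inhibitor and 86.8 ± 3.56 in Tyr19Phe cells. ABCA7, a phospholipid transporter, was at 12.5 ± 1.08, 14.8 ± 2.30 and 11.8 ± 1.35 CPM, and ABCG4, which exports sterols, at 3.01 ± 0.233, 3.89 ± 0.158 and 2.90 ± 0.588. ABCA5 was the 1 tested gene of the remaining 8 in subfamily A, at 10.2 ± 0.375, 10.1 ± 3.00 and 8.18 ± 2.18 CPM.

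ABCG1, which hands cholesterol on to HDL alongside ABCA1, had 0 counts in every library. A count of 0 allows up to 0.101 to 0.165 CPM.

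The partners of these transporters in cholesterol handling were read from a list of 14 genes, of which 12 were tested. In Tyr19Phe cells 4 rose and 1 fell (33.3% and 8.33%, beside 7.61% and 10.4% of all genes). With the inhibitor 1 rose (8.33%, beside 1.82% of all genes). None fell with it (0 by DESeq2, 1 at an unadjusted p under 0.05), where 2.73% of all genes fell. SREBF2, the transcription factor that drives sterol synthesis and uptake, rose in Tyr19Phe cells (log2 fold change 0.23 ± 0.04, adjusted p = 2.22e-04). NR1H2, a liver X receptor, rose in Tyr19Phe cells (0.36 ± 0.08, adjusted p = 8.54e-04). The fall was in SCARB1, the HDL receptor (-0.27 ± 0.09, adjusted p = 0.0391), which DESeq2 did not call.

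Of the 9 multidrug pumps, 7 were tested. In Tyr19Phe cells ABCC1, ABCC3 and ABCC4 fell (42.9%, beside 10.4% of all genes). None rose by edgeR or DESeq2 (beside 7.61% of all genes), with 0 higher at an unadjusted p under 0.05. With the inhibitor ABCC3 rose (14.3%, beside 1.82% of all genes). None fell by edgeR or DESeq2 (beside 2.73% of all genes), with 1 lower at an unadjusted p under 0.05. Their summed level was 211 ± 4.07 TPM in WT, 216 ± 10.1 with the inhibitor and 185 ± 5.78 in Tyr19Phe cells.

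ABCC1 (ENSG00000103222, chromosome 16, 15949577 to 16143074) exports glutathione conjugates and many anticancer drugs. It stood at 183, 192 and 203 CPM in WT, 199, 203 and 178 with the inhibitor and 163, 165 and 152 in Tyr19Phe libraries. The Tyr19Phe libraries were below all others, while WT and inhibitor libraries overlapped. In Tyr19Phe cells it was lower by a log2 fold change of -0.27 ± 0.05 (adjusted p = 2.92e-04), and with the inhibitor the value was 0.01 ± 0.05 (adjusted p = 0.985), a value below 0 without WT replicate 1 (-0.03) or inhibitor replicates 1 (-0.01) or 2 (-0.03). The direct difference was -0.27 ± 0.05 (adjusted p = 2.03e-04).

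ABCC3 (ENSG00000108846, chromosome 17, 50634777 to 50692252) exports glucuronides and bile salts. It was called in opposite directions. Its level was 75.4, 67.6 and 68.9 CPM in WT, 82.4, 83.8 and 83.7 with the inhibitor and 58.9, 66.1 and 58.5 in Tyr19Phe libraries, so the 3 groups did not overlap. Log2 fold changes were 0.24 ± 0.07 with the inhibitor (adjusted p = 0.0375) and -0.21 ± 0.07 in Tyr19Phe cells (adjusted p = 0.0307). The direct difference, -0.45 ± 0.07, had an adjusted p of 7.33e-06 and was called in all 6 fits without 1 library. Against WT CDK9 the calls were less stable. The rise with the inhibitor was called, of the fits without 1 library, only without WT replicate 1, with adjusted p of 0.154 and 0.130 without WT replicates 2 and 3 and of 0.0809, 0.0986 and 0.114 without inhibitor replicates 1, 2 and 3. The fall in Tyr19Phe cells was lost without WT replicates 1 and 3 (0.210 and 0.0526) and without Tyr19Phe replicates 1 and 3 (0.123 and 0.145).

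ABCC4 (chromosome 13, 95019829 to 95301475) exports cyclic nucleotides and nucleotide analogues. Its level was 91.5, 85.1 and 97.4 CPM in WT, 87.7, 77.2 and 76.8 with the inhibitor and 81.6, 71.5 and 79.7 in Tyr19Phe libraries. Every Tyr19Phe library lay below the WT libraries, and inhibitor and WT libraries overlapped. In Tyr19Phe cells the log2 fold change was -0.23 ± 0.07 (adjusted p = 0.0144), and with the inhibitor it was -0.18 ± 0.07 (adjusted p = 0.172). The call in Tyr19Phe cells was lost without WT replicates 1 and 3 (0.0565 and 0.119) and without Tyr19Phe replicate 2 (0.124). The direct difference, -0.05 ± 0.07, did not pass the test (adjusted p = 0.647).

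ABCC10 (chromosome 6, 43427366 to 43450430), a pump whose known substrates include taxanes, was at 22.9, 17.7 and 16.7 CPM in WT, 18.7, 15.3 and 18.4 with the inhibitor and 20.5, 21.7 and 24.6 in Tyr19Phe libraries. The WT libraries overlapped both other groups. Neither comparison with WT CDK9 passed the test (log2 fold changes -0.13 ± 0.13 and 0.22 ± 0.13, adjusted p = 0.741 and 0.255). The direct difference was 0.35 ± 0.13 (adjusted p = 0.0474 by edgeR and 0.0708 by DESeq2). It was lost without inhibitor replicates 1, 2 and 3 (0.0550, 0.205 and 0.0700) and without Tyr19Phe replicates 2 and 3 (0.0812 and 0.203).

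**Figure D3:**
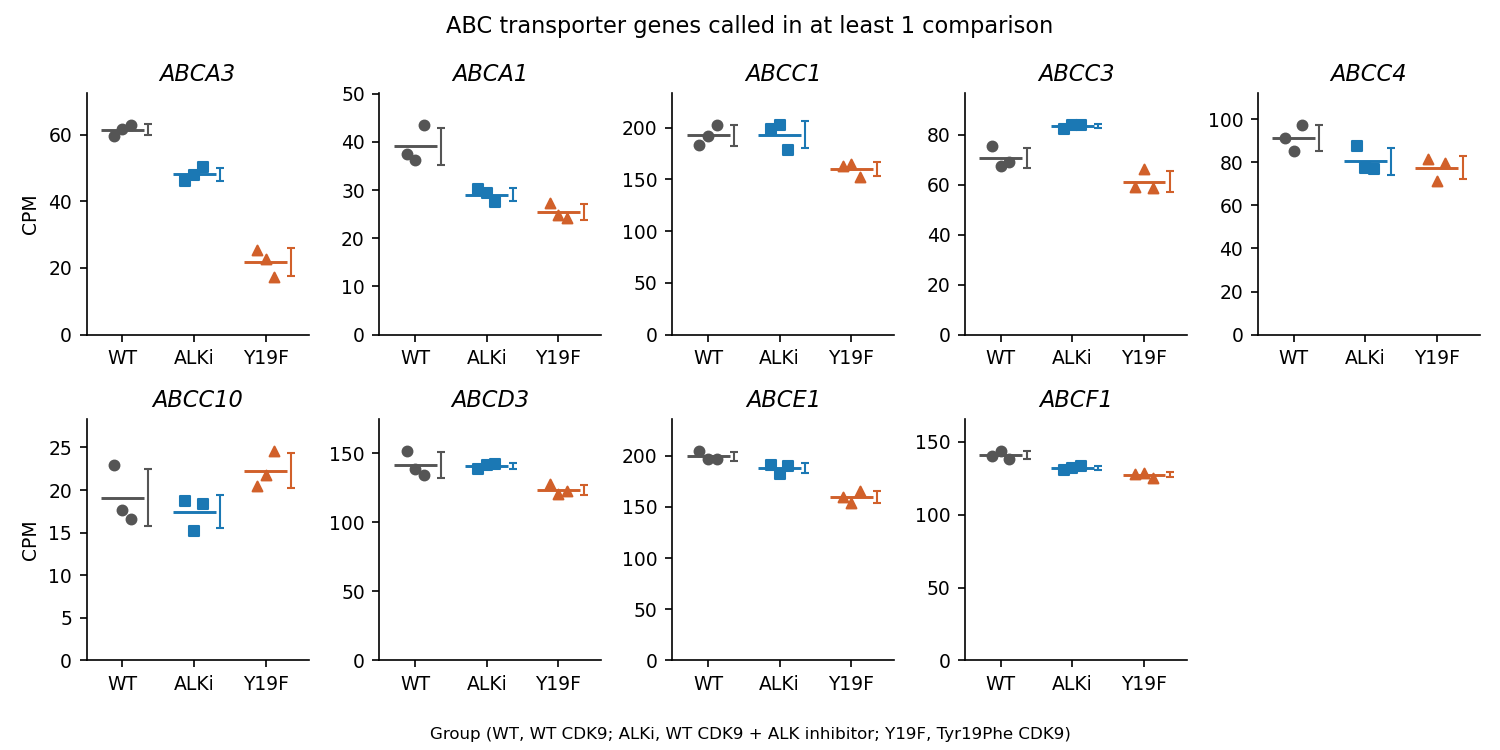
Level in CPM (vertical axis, from 0) of 9 of the 10 ABC transporter genes called in at least 1 comparison, by group (horizontal axis). Symbols are single libraries, the horizontal line is the mean of 3 and the bar beside it is the SD. ABCA3 steps down from WT (59.8 to 63.0) over inhibitor (46.2 to 50.2) to Tyr19Phe libraries (17.3 to 25.5), and ABCC3 is highest with the inhibitor (82.4 to 83.8).

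Among the remaining C pumps, ABCC5, which exports nucleotide analogues, was at 59.1, 54.4 and 50.4 CPM in WT, 54.5, 47.7 and 51.8 with the inhibitor and 55.7, 60.7 and 59.4 in Tyr19Phe libraries. Its log2 fold changes of -0.09 ± 0.08 and 0.10 ± 0.08 did not pass the test (adjusted p = 0.689 and 0.422). ABCC2, known for the export of cisplatin conjugates and methotrexate, was low, at 2.36, 1.95 and 2.03 CPM in WT, 2.18, 1.37 and 2.06 with the inhibitor and 2.33, 2.63 and 2.37 in Tyr19Phe libraries (adjusted p = 0.902 and 0.759).

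The pumps best known for exporting PARP inhibitors were close to the detection floor, and neither was called. ABCB1 (P-glycoprotein) was listed with 4, 3 and 12 counts in WT, 3, 0 and 3 with the inhibitor and 8, 38 and 10 in Tyr19Phe libraries. That is at most 1.35 CPM, reached in Tyr19Phe replicate 2. It did not have enough counts for a test. ABCB1 overlaps RUNDC3B on the opposite strand over 85776 bases, and RUNDC3B had 25 to 83 counts per library. The strand setting of the counting is not given in the sources used here, so reads of these genes may not be told apart.

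ABCG2 (BCRP; chromosome 4, 88090264 to 88231322) was listed with 13, 22 and 16 counts in WT, 32, 33 and 35 with the inhibitor and 38, 16 and 7 in Tyr19Phe libraries. The inhibitor libraries (1.52, 1.81 and 1.81 CPM) were above the WT libraries (0.666, 1.16 and 0.854 CPM), and the Tyr19Phe libraries (1.29, 0.569 and 0.264 CPM) spread over both sides of WT. The log2 fold change was 0.93 ± 0.58 with the inhibitor (adjusted p = 0.502) and -0.33 ± 0.59 in Tyr19Phe cells (adjusted p = 0.778), and neither passed the test. The latter value rests on Tyr19Phe replicate 3, and without it the log2 fold change was 0.06. The direct difference, -1.26 ± 0.58 (adjusted p = 0.125), passed the test only without Tyr19Phe replicate 1 (-2.02, adjusted p = 0.0364). The median log2 fold change of the 36 tested genes within 5 Mb was -0.22 in Tyr19Phe cells.

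**Figure D4:**
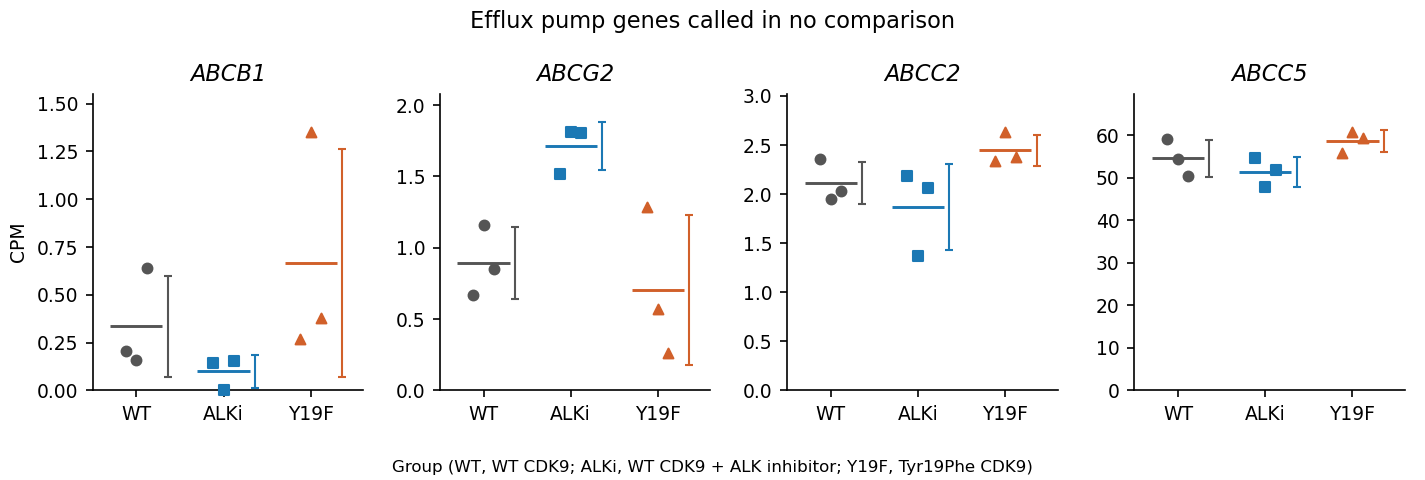
Level in CPM (vertical axes, each from 0) of ABCB1, ABCG2, ABCC2 and ABCC5, efflux pump genes called in no comparison, by group (horizontal axis). Symbols are single libraries, the line is the mean of 3 and the bar the SD. ABCB1, which was not tested, reaches 1.35 CPM in Tyr19Phe replicate 2 and at most 0.641 in the other libraries, and the 3 ABCG2 libraries with the inhibitor (1.52 to 1.81) lie above the WT libraries (0.666 to 1.16).

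Drug and platinum transporters outside the ABC family were read beside the pumps. All 13 were tested, and in Tyr19Phe cells 4 rose and 4 fell (30.8% each, beside 7.61% and 10.4% of all genes, and 5 and 5 by DESeq2). With the inhibitor 1 rose (7.69%, beside 1.82% of all genes). None fell with it (0 by DESeq2, 1 at an unadjusted p under 0.05), where 2.73% of all genes fell. MVP, the major vault protein linked to drug resistance, rose with the inhibitor (log2 fold change 0.39 ± 0.05, adjusted p = 2.51e-06) and in Tyr19Phe cells (0.36 ± 0.05, adjusted p = 2.70e-06). LRRC8A, the core subunit of the volume-regulated anion channel through which cisplatin can enter, rose in Tyr19Phe cells (0.61 ± 0.05, adjusted p = 4.47e-10). SLC47A1, the cation exporter MATE1, fell there (-1.40 ± 0.30, adjusted p = 8.11e-04), from 3.23, 3.37 and 4.43 CPM in WT to 1.29, 1.85 and 1.02. ATP7A and ATP7B, the copper pumps, also fell there (-0.46 ± 0.13 and -0.56 ± 0.13, adjusted p = 0.00909 and 0.00156), and were named after their values were seen.

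Of 12 regulators of pump genes, 10 were tested. In Tyr19Phe cells 1 rose and 2 fell (10.0% and 20.0%, beside 7.61% and 10.4% of all genes). None was called with the inhibitor by edgeR or DESeq2 (0 higher and 1 lower at an unadjusted p under 0.05). Over all genes edgeR called 1.82% higher and 2.73% lower with the inhibitor. HIF1A, the hypoxia factor, fell in Tyr19Phe cells (-0.25 ± 0.04, adjusted p = 6.06e-06), as did FOXO1 (-0.59 ± 0.17, adjusted p = 0.0136). HSF1, the heat shock factor, rose there (0.21 ± 0.05, adjusted p = 0.00588).

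Glutathione is the partner of ABCC1 in export. Of 8 tested genes for its synthesis, recycling and conjugation, 1 fell in Tyr19Phe cells (12.5%, beside 10.4% of all genes). None rose there by edgeR or DESeq2 (1 at an unadjusted p under 0.05), where 7.61% of all genes rose. With the inhibitor none was called by either, nor at an unadjusted p under 0.05. Over all genes edgeR called 1.82% higher and 2.73% lower with the inhibitor. The fall was in GSR, glutathione reductase, from 125, 122 and 122 CPM in WT to 81.6, 86.0 and 82.8 (-0.56 ± 0.06, adjusted p = 6.58e-09). GCLM and GCLC, subunits of the enzyme that starts glutathione synthesis, had log2 fold changes of 0.15 ± 0.06 and -0.14 ± 0.08 (adjusted p = 0.103 and 0.231).

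The soluble E and F members include the most abundant genes of the family, ABCE1 and ABCF1. All 4 were tested, and in Tyr19Phe cells ABCE1 and ABCF1 fell, where 10.4% of all genes fell. With the inhibitor none was called by edgeR or DESeq2, with 0 in either direction at an unadjusted p under 0.05. Among all genes, edgeR called 1.82% higher and 2.73% lower with the inhibitor. Their summed level was 316 ± 8.94 TPM in WT, 308 ± 2.72 with the inhibitor and 276 ± 4.04 in Tyr19Phe cells.

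ABCE1 (ENSG00000164163, chromosome 4, 145097932 to 145129179) was at 205, 197 and 197 CPM in WT, 191, 182 and 190 with the inhibitor and 159, 154 and 166 in Tyr19Phe libraries. The Tyr19Phe libraries lay below all others. The log2 fold change was -0.32 ± 0.05 in Tyr19Phe cells (adjusted p = 3.45e-06) and -0.09 ± 0.05 with the inhibitor (adjusted p = 0.368), and the direct difference was -0.23 ± 0.05 (adjusted p = 3.39e-04). The median of its neighbours was below 0 as well. Over 33 tested genes within 5 Mb the median log2 fold change in Tyr19Phe cells was -0.19, with 8 lower and 0 higher. OTUD4, which overlaps ABCE1 on the opposite strand over 18342 bases, was also lower (-0.21 ± 0.05, adjusted p = 0.00460). The part of the region and of the overlap in the value of ABCE1 was not tested.

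ABCF1 (chromosome 6, 30571376 to 30597179) was at 140, 144 and 139 CPM in WT, 131, 132 and 133 with the inhibitor and 128, 129 and 125 in Tyr19Phe libraries, with no overlap among groups. The log2 fold change in Tyr19Phe cells was -0.15 ± 0.05 (adjusted p = 0.0372). This call was lost in all 6 fits without 1 library, with adjusted p from 0.0662 (without WT replicate 3) to 0.135 (without Tyr19Phe replicate 3). With the inhibitor the log2 fold change was -0.10 ± 0.05 (adjusted p = 0.369). The direct difference, -0.05 ± 0.05, did not pass the test (adjusted p = 0.544). ABCF2 and ABCF3, its relatives, had log2 fold changes of 0.03 ± 0.12 and 0.02 ± 0.09 in Tyr19Phe cells.

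Of 11 genes that act with ABCE1 in ribosome recycling and stalling, all were tested. In Tyr19Phe cells 4 fell (36.4%, beside 10.4% of all genes). None rose there by edgeR or DESeq2 (beside 7.61% of all genes), with 0 higher at an unadjusted p under 0.05. With the inhibitor none was called by edgeR, with 1 lower by DESeq2 and 3 lower at an unadjusted p under 0.05. Over all genes edgeR called 1.82% higher and 2.73% lower with the inhibitor. EIF2AK4, the kinase GCN2 that senses stalled ribosomes, fell in Tyr19Phe cells (-0.32 ± 0.04, adjusted p = 8.44e-07), as did DENR, which helps to recycle the small subunit (-0.19 ± 0.05, adjusted p = 0.00317), and ETF1, the release factor (-0.13 ± 0.04, adjusted p = 0.0170).

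In the peroxisome, ABCD3 (chromosome 1, 94418455 to 94518666), which imports branched-chain fatty acids and bile acid precursors, was at 152, 138 and 134 CPM in WT, 138, 141 and 142 with the inhibitor and 127, 120 and 123 in Tyr19Phe libraries. Tyr19Phe libraries lay below both other groups, which overlapped. The log2 fold change was -0.19 ± 0.05 against WT (adjusted p = 0.00852) and -0.19 ± 0.05 against the inhibitor (adjusted p = 0.0103). The first call was lost without WT replicate 1 (0.128) and without Tyr19Phe replicate 2 (0.0504), and the second without Tyr19Phe replicate 2 (0.0525). The median over its 49 tested neighbours within 5 Mb was -0.09.

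ABCD4, the lysosomal cobalamin transporter, was at 31.3 ± 0.900, 35.2 ± 1.04 and 34.3 ± 0.787 CPM and was not called, and ABCB9, the lysosomal peptide transporter, was at 6.20 ± 0.447, 5.32 ± 1.23 and 6.14 ± 1.58.

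Of 13 tested peroxisome and cobalamin genes, 1 rose with the inhibitor (7.69%, beside 1.82% of all genes). In Tyr19Phe cells 1 rose and 2 fell (7.69% and 15.4%, beside 7.61% and 10.4% of all genes). None fell with the inhibitor by edgeR or DESeq2 (beside 2.73% of all genes), nor at an unadjusted p under 0.05. LMBRD1, the partner of ABCD4 in cobalamin export from the lysosome, rose with the inhibitor (0.45 ± 0.11, adjusted p = 0.00900). SLC27A2, which activates very long chain fatty acids, fell in Tyr19Phe cells from 2.66, 2.64 and 3.10 CPM to 1.22, 0.569 and 0.339 (-1.96 ± 0.46, adjusted p = 0.00209), and HSD17B4, an enzyme of peroxisomal β-oxidation, fell (-0.18 ± 0.05, adjusted p = 0.0160).

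The 4 mitochondrial transporters were tested, and none was called in either comparison with WT CDK9 by edgeR or DESeq2. Over all genes 7.61% rose and 10.4% fell in Tyr19Phe cells, and 1.82% and 2.73% with the inhibitor. At an unadjusted p under 0.05, 1 was lower with the inhibitor and 0 in Tyr19Phe cells. ABCB10, which supports heme synthesis, was at 75.8 ± 1.55 CPM in WT, 66.4 ± 7.34 with the inhibitor and 75.1 ± 4.29 in Tyr19Phe cells, and the inhibitor effect of -0.19 ± 0.07 on the log2 scale did not pass (adjusted p = 0.170). ABCB8 had log2 fold changes of 0.06 ± 0.11 and 0.14 ± 0.11, and ABCB6, a porphyrin transporter, was at 1.52 ± 0.315, 1.82 ± 0.428 and 1.46 ± 0.845.

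Of 11 tested genes of iron-sulfur clusters and heme, 2 fell in Tyr19Phe cells (18.2%, beside 10.4% of all genes). None rose there by edgeR or DESeq2 (beside 7.61% of all genes), with 0 at an unadjusted p under 0.05. With the inhibitor none was called by any of these, and edgeR called 1.82% of all genes higher and 2.73% lower. FECH, ferrochelatase, fell in Tyr19Phe cells (-0.17 ± 0.06, adjusted p = 0.0390), as did GLRX5, a glutaredoxin of cluster assembly (-0.22 ± 0.08, adjusted p = 0.0408). CPOX, an enzyme of heme synthesis, had a log2 fold change of 0.11 ± 0.06 (adjusted p = 0.245).

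ABC transporters with other symbols fell outside the naming rule. Of 3 such genes 2 were tested, and both rose in Tyr19Phe cells, where 7.61% of all genes rose. They are TAP1 and TAP2, which carry peptides into the endoplasmic reticulum for MHC class I. Both lie within 5 Mb of ABCF1 on chromosome 6. Over the 213 tested neighbours of ABCF1 the median log2 fold change in Tyr19Phe cells was 0.13, with 36 higher and 4 lower. The part of the region in these values was not tested. TAP1 was at 35.1, 34.8 and 32.2 CPM in WT, 32.0, 38.8 and 31.6 with the inhibitor and 55.0, 55.7 and 50.5 in Tyr19Phe libraries (0.66 ± 0.09, adjusted p = 1.05e-06). TAP2 was at 24.6, 20.2 and 22.9 CPM in WT and 30.5, 26.4 and 28.5 in Tyr19Phe libraries (0.34 ± 0.11, adjusted p = 0.0286). Neither was called with the inhibitor by edgeR or DESeq2, nor at an unadjusted p under 0.05, and CFTR did not have enough counts for a test.

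Over the tested genes of each partner list, the median log2 fold change in Tyr19Phe cells was 0.50 for the ABC transporters with other symbols and 0.21 for cholesterol handling. It was -0.10 for drug and platinum transporters, -0.07 for glutathione genes, -0.03 for iron-sulfur clusters and heme, -0.02 for the regulators, -0.02 for ribosome recycling and -0.0058 for the peroxisome and cobalamin, beside 0.0035 over all tested genes. With the inhibitor the list medians lay between -0.04 (ribosome recycling) and 0.10 (drug and platinum transporters).

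The 20 untested members were at or near the floor. ABCA8, ABCB5, ABCB11, ABCC9, ABCD2, ABCG1 and ABCG8 had 0 counts in every library. The other 13 were ABCB1 and 12 genes that reached at most 27 counts in any library, in ABCA10. None of the 6 channel regulators and tissue-specific exporters (ABCC6, ABCC8, ABCC9, ABCC12, ABCB5 and the bile salt pump ABCB11) passed the filter.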

How the data were processed

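The authors had total RNA of 9 SKOV3 samples sequenced by an outside provider, with hg38 as the genome. The submitters' processing notes name CASAVA, HISAT2 2.0.5 and featureCounts 1.5.0-p3, and the annotation and strand setting are not given in the sources used here. The deposited table holds raw counts per gene and library. Groups came from the labels. The members, lists and tests were chosen with earlier results of these data known. Genes passed filterByExpr (minimum count 10, minimum total 15), and 16350 were tested with edgeR 4.0.16 (R 4.3.3, limma 3.58.1) by a quasi-likelihood fit of 1 mean per group over all 9 libraries (6 residual degrees of freedom, TMM scaling), with Benjamini-Hochberg adjustment over all tested genes. DESeq2 1.42.0, the tool of the study, was an alternative. The SE is the log2 fold change divided by the root of F. CPM were scaled by TMM, and TPM used the deposited gene lengths. Fits were tested on simulated data. An exact permutation test of 3 against 3 libraries cannot go below 0.1 and was not used. Named were all members called in any comparison, ABCB1, ABCG2, ABCC1 to ABCC5 and ABCC10, the 3 most abundant, the 2 largest changes against WT, and the 3 smallest adjusted p per partner list. Some genes that this rule names are not reported here. Positions are those of the deposited table, and promoter sequences are RefSeq's. Python 3.11.15 with pandas 2.3.3, numpy 2.4.6 and matplotlib 3.10.9 made tables and figures.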

Additional observations from a re-analysis of the deposited data

Results flagged for a closer look

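The effects of Tyr19Phe CDK9 and of the ALK inhibitor, each against the shared WT libraries, differed for 6 reported ABC transporter genes by the direct comparison of Tyr19Phe with inhibitor-treated libraries (edgeR, adjusted p under 0.05). As log2 differences of Tyr19Phe from inhibitor-treated libraries, ABCA3 was at -1.14, ABCC3 at -0.45, ABCC1 at -0.27, ABCE1 at -0.23 and ABCD3 at -0.19, and ABCC10 was at 0.35. For ABCC3 both groups were called against WT, in opposite directions, and for ABCC10 neither was. All 3 libraries of a group lay on one side of the other group's for each of the 6 genes. The same libraries had called these genes, so this is no separate support. Over all tested genes, called or not, the share was 34.4%. The direct comparison called none of ABCA1 (-0.19, adjusted p = 0.173), ABCC4 (-0.05, adjusted p = 0.647) and ABCF1 (-0.05, adjusted p = 0.544). All of these were called lower in Tyr19Phe cells against WT.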

How the results depend on the processing

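For 13 named members with a test, 543 values were recomputed under alternatives. Of these, 494 kept their direction and side of the threshold, 37 kept the direction and lost the call, 1 gained a call and 11 changed sign, all 11 without a call. The calls of ABCA3, ABCA1, ABCE1 and ABCC1 in Tyr19Phe cells were kept under every alternative run. With libraries thinned to the smallest, 0 members rose with the inhibitor (ABCC3, adjusted p = 0.0505), and with DESeq2, 0 were higher in the direct comparison (ABCC10, adjusted p = 0.0708); the cause was not tested. Scaling by library size alone ended the calls of ABCC3 (adjusted p = 0.0634) and ABCF1 (0.0944) in Tyr19Phe cells, and no filter on low counts that of ABCF1 (0.0882).

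Without 1 library, counts called ran from 0 to 1 (higher, inhibitor), 0 to 2 (lower, inhibitor), 4 to 7 (lower, Tyr19Phe), 0 to 1 (higher, direct) and 5 to 8 (lower, direct), and 0 rose in Tyr19Phe cells in any. The count of 2 lower with the inhibitor was 0 without WT replicate 3. It was 1 without WT replicates 1 or 2 or inhibitor replicates 1 or 2. The count of 8 lower in Tyr19Phe cells was 4 without WT replicate 1 and 5 without WT replicate 3 or Tyr19Phe replicate 2. Signs changed for uncalled log2 fold changes with the inhibitor of ABCC1 (-0.0273 to 0.0595), ABCC10 (-0.215 to 0.0266), ABCC2 (-0.292 to 0.0103) and ABCD3 (-0.0408 to 0.0495, and 0.0185 by library size alone), for ABCC4 in the direct comparison (-0.0939 to 0.0119) and for ABCG2 in Tyr19Phe cells (-1.08 to 0.0640). The libraries concerned were WT replicate 1 (ABCC1, ABCC10, ABCD3), inhibitor replicates 1 (ABCC1, ABCC4, ABCD3) and 2 (ABCC1, ABCC2), and Tyr19Phe replicates 2 (ABCC4) and 3 (ABCG2). ABCG2 has no value where 10 counts were required in every library.

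Replicate numbers did not pair the libraries, with correlations of same-numbered libraries' deviations from -0.0116 to 0.0260. With the replicate block the counts were 1 higher and 2 lower (inhibitor), 0 and 8 (Tyr19Phe), and 1 and 6 (direct), as without it, and it changed no call. ABCB1, ABCG2, ABCC2 and ABCB6 lie within a few CPM of the floor of 3 counts, and what limits their tests was not tested.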

Other observations

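Several ABC entries of the table are pseudogenes or antisense RNAs and no members. ABCA11P had 48 to 117 counts per library and was tested, with log2 fold changes of -0.36 with the inhibitor and -0.31 in Tyr19Phe cells. ABCA17P had 14 to 37 counts, with 0.06 and -0.52. None of these values was called. ABCC6P2 had 0 to 11 counts and ABCC5-AS1, antisense to ABCC5, 0 to 6.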
